A study of Mus musculus with 2 samples.

Results

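Cell-surface proteins are the handles by which fibroblasts are stained, gated and sorted, and the transcripts of 10 such proteins, of 33696 genes listed, are described here at puberty and in the adult mouse mammary gland. The genes were chosen by name as antigens in use for sorting fibroblasts: *Cd34*, *Ly6a*, *Ly6c1*, *Pi16*, *Cd55*, *Cd248*, *Thy1*, *Eng*, *Cd9* and *Icam1*. All 10 were present in both gene tables and passed the expression minimum of 10 CPM (UMIs of a gene per 1000000 UMIs). Only RNA was measured, so the values say nothing direct about the amount of protein on a cell.

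Stromal cells had been freshly sorted as lineage-negative and CD24-negative from the mammary glands of female wild-type C57BL/6 mice, with 2 females for each condition. One library came from puberty at 4 weeks of age and the other from virgin adults at 9 weeks, and both carry the replicate number 2. Lineage antibodies were directed at CD31, CD45 and TER-119, so endothelial cells, leukocytes and erythroid cells were gated out, and CD24 removed epithelial cells. With 1 library per stage, stage, animals and library cannot be told apart, no test was possible, and each interval given covers counting error only, at 95%.

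The pubertal library held 21688 barcodes with a median of 11726 unique molecular identifiers (UMIs, each marking 1 captured RNA molecule), and the adult library 23183 barcodes with a median of 10781. The libraries had 145 barcodes in common. Cells were kept with at least 500 genes, at most 10% mitochondrial UMIs and at least 1 UMI of *Pdgfra*, the platelet-derived growth factor receptor gene that marks mammary fibroblasts. This left 18878 pubertal and 20999 adult cells. Another 2656 pubertal and 1973 adult cells passed the other limits but had no *Pdgfra* UMI. Over the kept cells *Pdgfra* itself was at 380 CPM at puberty and 635 CPM in the adult, a ratio of 1.67. Most fibroblast markers were found in nearly all kept cells. *Dcn* was found in 99.9% and 99.6% and *Col1a1* in 99.95% and 99.5%. *Lum* was found in 98.3% and 97.6%, *Col1a2* in 99.9% and 99.8% and *Col3a1* in 99.98% and 99.8%. The exception was *Pdgfrb*, in 43.6% and 63.2%. *Ptprc*, which encodes CD45, was found in 1 and 4 cells. *Pecam1*, which encodes the CD31 of the gate, had a UMI in 10.4% and 4.16% of kept cells. *Cd24a*, which encodes the CD24 of the gate, had a UMI in 7.37% and 2.29%. At least 3 of 6 markers of another cell type were present in 0.826% of pubertal and 0.529% of adult kept cells.

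These proteins are anchored and used in different ways. Sca-1 (*Ly6a*), Ly6C (*Ly6c1*), CD90 (*Thy1*) and decay accelerating factor (*Cd55*) are held in the membrane by a glycolipid, whereas the sialomucin CD34, endosialin (*Cd248*), endoglin (*Eng*), the tetraspanin CD9 and the adhesion molecule ICAM-1 span it. In many tissues, fibroblasts expressing *Pi16* and *Dpp4* are regarded as a progenitor-like pool of the adventitia and of interstitial spaces, and in fat ICAM-1 marks preadipocytes already committed to the adipocyte lineage. CD34 and Sca-1 are classical handles for stromal progenitors, and in the study fibroblasts were sorted by the level of CD34.

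Kept cells were read in 5 subsets set by other genes, which could overlap. Subsets were set on all UMIs of a cell, with a median of 12187 per kept cell at puberty and 11265 in the adult. *Dpp4* at 2 or more UMIs, marking the progenitor-like pool, held 75.4% of pubertal and 45.6% of adult cells. *Gdf10* or *Fmo2*, genes of fibroblasts that regulate adipogenesis, held 39.5% and 47.9%. *Thbs4* or *Bmp5*, found in lobular-like fibroblasts, held 4.91% and 14.8%, *Fabp4* at 2 or more UMIs, a preadipocyte gene, held 9.42% and 12.2%, and *Crabp1*, a retinoic acid binding protein gene, held 1.53% and 12.7%. More than 1 subset claimed 5952 pubertal and 7814 adult cells.

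With 3000 UMIs drawn from each cell, *Pi16* and *Cd55* were the only pair to reach 1.2 times the product of their shares at both stages. This ratio has a ceiling for common genes, and no pair reached 1.2 at both stages with 5000 UMIs. *Icam1* was the member least often found with *Pi16* relative to the product. The promoters of these 3 genes are shown. Each runs from 250 bases before to 50 bases after the annotated start, 5′ to 3′ on the gene's strand (RefSeq, GRCm38.p6). Capitals mark 4 promoter motifs searched on both strands: the TATA box as TATAAA, the GC box as GGGCGG, the CCAAT box under its own letters, and the AP-1 site as TGACTCA. No 2 matches overlapped in these windows. *Pi16* lies on the plus strand (chr17:29318632-29318931), *Cd55* on the minus strand (chr1:130462695-130462994) and *Icam1* on the plus strand (chr9:21015690-21015989).
Pi16: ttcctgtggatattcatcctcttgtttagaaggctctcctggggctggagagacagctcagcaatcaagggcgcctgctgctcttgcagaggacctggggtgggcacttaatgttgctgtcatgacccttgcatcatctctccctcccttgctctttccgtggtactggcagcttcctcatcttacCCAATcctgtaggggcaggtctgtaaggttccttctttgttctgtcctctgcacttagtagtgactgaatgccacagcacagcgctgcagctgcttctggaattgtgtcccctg
Cd55: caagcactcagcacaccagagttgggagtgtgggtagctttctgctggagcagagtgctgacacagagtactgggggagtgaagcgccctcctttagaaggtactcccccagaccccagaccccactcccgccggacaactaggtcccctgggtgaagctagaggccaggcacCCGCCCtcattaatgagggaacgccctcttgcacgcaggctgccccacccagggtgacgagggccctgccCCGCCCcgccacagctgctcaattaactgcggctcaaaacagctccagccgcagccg
Icam1: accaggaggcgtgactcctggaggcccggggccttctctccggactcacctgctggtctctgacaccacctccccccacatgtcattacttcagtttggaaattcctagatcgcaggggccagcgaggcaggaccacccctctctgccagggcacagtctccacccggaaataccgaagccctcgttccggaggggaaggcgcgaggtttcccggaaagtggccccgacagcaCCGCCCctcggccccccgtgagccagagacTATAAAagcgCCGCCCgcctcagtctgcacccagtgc
The *Pi16* window held 1 CCAAT box, that of *Cd55* 2 GC boxes, and that of *Icam1* 1 TATAAA match and 2 GC boxes. In *Icam1* the TATAAA match and 1 of the GC boxes lay in the 50 bases after the annotated start. That match is therefore not read as a TATA box of this start. Of 32851 promoter windows of the same length, 37.4% held a CCAAT box, 35.7% a GC box, 13.6% a TATA box and 5.20% an AP-1 site. GC content was 53.3% for *Pi16*, 63.3% for *Cd55* and 64.7% for *Icam1*, beside a median of 52.7% over all windows. The *Pi16* and *Cd55* windows had none of these 4 motifs in common, and promoter windows were matched for 7 of the 10 members.

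Between the stages, members moved in opposite directions. *Thy1*, *Cd9* and *Icam1* were at least 1.5-fold higher in the adult library, *Ly6c1* and *Cd55* were at least 1.5-fold lower, and the other 5 stayed within 1.5-fold. Among all 8288 genes with a mean of at least 10 CPM, 10.8% were higher by this measure and 4.87% lower. So 3 of 10 and 2 of 10 members stood beside backgrounds of about 1 in 10 and 1 in 20 genes.

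CPM was computed from UMIs summed over the kept cells of a library. *Pi16*, encoding a CAP-family peptidase inhibitor, was at 1089 CPM (interval 1085 to 1093) at puberty and 762 CPM (759 to 766) in the adult, an adult to puberty ratio of 0.700. *Cd55*, whose product shields cells from complement, was at 569 CPM and 360 CPM, a ratio of 0.634 (0.628 to 0.639). *Cd248* was at 396 and 304 CPM, a ratio of 0.766. These 3 genes were all lower in the adult, although only *Cd55* passed 1.5-fold.

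Of the Ly6 pair, *Ly6a* was at 1506 CPM at puberty and 1038 CPM in the adult, a ratio of 0.689 (0.685 to 0.692). *Ly6c1* was at 682 and 424 CPM, a ratio of 0.621 (0.617 to 0.626). *Cd34* hardly moved, at 691 CPM (688 to 694) and 631 CPM (628 to 634), a ratio of 0.913. Intervals of the stages did not overlap for any of the 10 members, which was also so for 85.9% of all tested genes. At these depths counting error separates differences far smaller than 1.5-fold, and it says nothing of the spread between animals.

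The remaining 4 members were higher in the adult. *Cd9* rose from 133 to 284 CPM, a ratio of 2.13 (2.11 to 2.16), and *Icam1* from 76.1 to 154 CPM, a ratio of 2.02 (1.98 to 2.05). *Thy1* was at 106 CPM at puberty and 201 CPM in the adult, a ratio of 1.90. *Eng*, a co-receptor for ligands of the TGF-beta family, was at 39.6 and 57.9 CPM, a ratio of 1.46, just inside the 1.5-fold limit. *Ly6c1* at 0.621 and *Cd55* at 0.634 lay just past it on the lower side, and *Ly6a* at 0.689 lay just short of it.

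**Figure D1:**
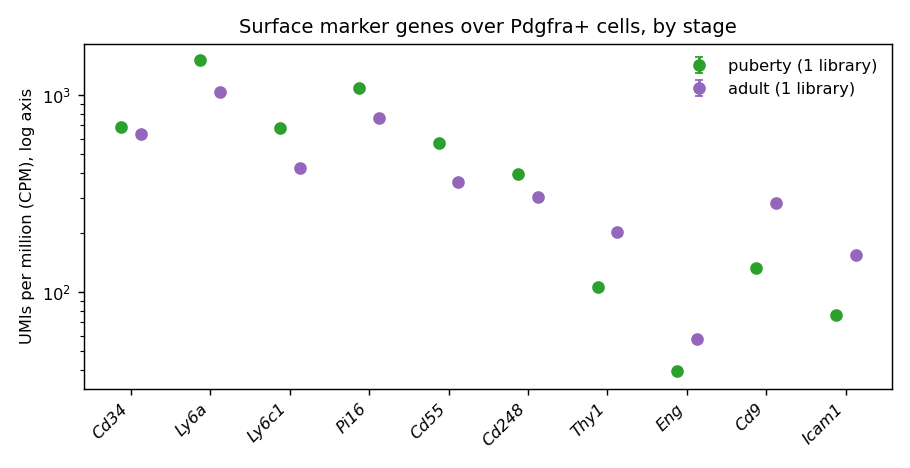
Level of each member over *Pdgfra*-positive cells in CPM (vertical log axis), with 1 point for each library (green puberty, purple adult). Error bars are exact Poisson 95% intervals, mostly smaller than the points. *Cd34*, *Ly6a*, *Ly6c1*, *Pi16*, *Cd55* and *Cd248* sit lower in the adult library, and *Thy1*, *Eng*, *Cd9* and *Icam1* higher.

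The plot of levels by stage shows how the members split into 6 that were lower in the adult and 4 that were higher. The direction of the scale matters for the count. Over all tested genes the median log2 ratio of adult to puberty was 0.12, and 68.9% of the genes called were higher in the adult. With TMM scaling, which centres that median near 0 at -0.02, 48.9% of called genes were higher, and 4 members rather than 2 were called lower. The added members were *Ly6a* (log2 ratio -0.68) and *Pi16* (-0.66), and *Thy1*, *Cd9* and *Icam1* stayed called at 0.78, 0.95 and 0.87.

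Near copies could share reads with the Ly6 and *Cd55* members. *Ly6c2*, a close relative of *Ly6c1*, had only 58 UMIs at puberty and 55 in the adult. *Cd55b*, a neighbouring paralog of *Cd55*, was at 21.5 CPM at puberty and 4.66 CPM in the adult, a ratio of 0.216 on 5095 and 1153 UMIs. *Ly6e* was at 228 and 234 CPM, a ratio of 1.03. How reads were assigned between *Cd55* and *Cd55b* cannot be seen from the counts, so the *Cd55* level is uncertain by the reads that they share.

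The stages also differed in their mix of subsets, so the same ratios were taken inside each subset. *Pi16* in *Dpp4* cells was at 1364 CPM at puberty and 1370 CPM in the adult, a ratio of 1.004 (interval from 0.998), against 0.700 over all kept cells. *Cd34* in *Dpp4* cells was 1.11 times its pubertal level, and *Ly6a*, *Ly6c1*, *Cd55* and *Cd248* were at 0.894, 0.860, 0.885 and 0.978 times. None of these 6 passed 1.5-fold in the *Dpp4* cells. With each of the 5 subsets given equal weight, no member was called lower in the adult, with log2 ratios of -0.47 for *Ly6c1* and -0.38 for *Cd55*, and *Cd34* turned to 0.10.

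The 4 members that were higher in the adult over all cells were higher in each of the 5 subsets. Over all kept cells 10.8% of tested genes were at least 1.5-fold higher and 4.87% lower. Such shares were not taken inside the subsets, so the stage differences there have no background. *Icam1* had ratios from 1.22 in *Fabp4* cells to 2.80 in *Dpp4* cells. *Cd9* ranged from 1.46 in *Crabp1* cells to 2.29 in *Dpp4* cells, *Thy1* from 1.63 in *Thbs4* or *Bmp5* cells to 2.04 in *Gdf10* or *Fmo2* cells, and *Eng* from 1.33 in *Fabp4* cells to 1.53 in *Dpp4* cells. In *Gdf10* or *Fmo2* cells, in contrast to *Dpp4* cells, *Pi16*, *Ly6c1* and *Cd55* were lower in the adult by more than 1.5-fold, at 0.587, 0.580 and 0.601. In *Fabp4* cells *Ly6c1* reached 0.524 and *Pi16* 0.564, and in *Crabp1* cells *Ly6c1* was at 0.544, there on 677 pubertal UMIs. Some cells of these subsets were also *Dpp4* cells, and fewer so in the adult. Their share was 58.4% and 35.3% in *Gdf10* or *Fmo2* cells, 29.1% and 22.1% in *Fabp4* cells and 22.5% and 14.4% in *Crabp1* cells. The part of this shift in the ratios was not tested.

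Other genes used to describe these cells are given for context. Of 20 genes of the universal *Pi16* fibroblast signature, none was higher in the adult and 13 were lower by 1.5-fold, with a median log2 ratio of -0.67 beside 0.12 over all tested genes. The largest differences were in *Akr1c18*, a hydroxysteroid dehydrogenase gene (380 to 102 CPM, ratio 0.268), *Uchl1*, a deubiquitinase gene (0.522), *Heg1*, encoding a mucin-like membrane protein (0.563), and *Has1*, a hyaluronan synthase gene (0.587). Of 24 other antigens used to gate stromal cells, 20 could be tested, with 4 higher, 4 lower and a median log2 ratio of 0.14. *Mme*, encoding the peptidase CD10, went from 37.7 to 367 CPM (ratio 9.74), *Entpd1*, encoding CD39, had a ratio of 2.95, *Pdgfrb* 2.13, and *Cd44*, the hyaluronan receptor gene, 0.449.

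Stress and cytokine transcripts also differed between the libraries. Of 10 heat shock and immediate early genes, 4 were higher in the adult and none lower, with *Hspa1b* at 36.8 and 295 CPM and *Hspa1a* at 46.9 and 248 CPM. Of 10 inflammatory NF-kB target genes, 2 were higher and 4 lower, with *Ccl7*, *Ccl2*, *Cxcl1* and *Il6* at ratios of 0.349, 0.458, 0.467 and 0.503. *Icam1* is itself an inducible adhesion gene, and the part of these transcripts in its ratio was not tested.

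Comparing each subset with the other kept cells of the same library, *Dpp4* cells carried most members at higher levels. *Cd34*, *Ly6a*, *Ly6c1*, *Pi16*, *Cd55* and *Cd248* were at least 1.5-fold higher in both libraries, 6 of 10 members beside 6.56% of 7948 genes, and *Cd9* and *Icam1* were lower, 2 of 10 beside 7.59%. *Thy1* and *Eng* were within 1.5-fold in both libraries.

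*Pi16* in *Dpp4* cells stood at 1364 CPM against 79.6 CPM in the other cells at puberty, a ratio of 17.1 (16.6 to 17.7), and at 1370 against 73.6 CPM in the adult, a ratio of 18.6 (18.2 to 19.0). *Cd55* followed with ratios of 7.91 and 9.21. The Ly6 genes were less separated at puberty than in the adult, with *Ly6c1* at 3.01 and 5.34 and *Ly6a* at 2.01 and 3.002. *Cd248* had ratios of 2.91 and 3.30 and *Cd34* 2.62 and 2.597. Where subsets were set on counts thinned to equal depth, the log2 ratio of *Pi16* dropped from 4.10 to 1.29 at puberty and from 4.22 to 2.80 in the adult. In that setting 5 members were called higher instead of 6, with no share over all genes taken.

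*Icam1* showed the reverse. It was at 40.6 CPM in *Dpp4* cells against 206 CPM in the other cells at puberty, a ratio of 0.197 (0.191 to 0.203), and at 114 against 198 CPM in the adult, a ratio of 0.574. *Cd9* had ratios of 0.360 and 0.619. In both genes the *Dpp4* cells of the adult were closer to the other cells than those of puberty. Where cells in more than 1 subset were left out, so that cells in exactly 1 subset were set against those in another or in none, the adult log2 ratio of *Icam1* was -1.61 rather than -0.80, and that of *Cd9* -1.49 rather than -0.69.

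In *Gdf10* or *Fmo2* cells *Icam1* was the only member at least 1.5-fold higher in both libraries, with ratios of 2.30 and 1.97, 1 of 10 members beside 1.52% of 7839 genes. *Cd9* was also higher, at 1.995 and 1.29, but passed the limit at puberty only. *Pi16* (0.502 and 0.358) and *Cd55* (0.566 and 0.483) were lower, 2 of 10 beside 1.61%. Since 58.4% of these cells at puberty and 35.3% in the adult were also *Dpp4* cells, the contrast depended on how shared cells were treated. Among cells of at most 1 subset, 2 members were higher and 7 lower, with no share over all genes taken. The log2 ratio of *Pi16* then went from -0.99 to -4.70 at puberty and from -1.48 to -4.61 in the adult.

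In *Thbs4* or *Bmp5* cells *Eng* and *Cd9* were at least 1.5-fold higher in both libraries, 2 of 10 members beside 2.56% of 7902 genes, and *Pi16*, *Cd55* and *Cd248* were lower by that limit, 3 of 10 beside 2.19%. *Eng* was at 71.4 CPM in these cells and 38.0 CPM in the others at puberty, a ratio of 1.88 (1.75 to 2.02), and at 101 and 49.9 CPM in the adult, a ratio of 2.03 (1.95 to 2.10). *Eng* was highest in this subset in both libraries. *Cd9* had ratios of 2.04 and 1.55. Among cells of at most 1 subset, 5 members rather than 3 were lower, again with no share over all genes taken. The log2 ratio of *Eng* was then 1.62 at puberty and 1.46 in the adult.

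In *Fabp4* cells *Icam1* was the 1 member of 10 that was at least 1.5-fold higher in both libraries, beside 3.37% of 7923 genes. It was at 246 CPM against 55.7 CPM at puberty, a ratio of 4.41 (4.28 to 4.55), and at 300 against 128 CPM in the adult, a ratio of 2.35 (2.30 to 2.40). *Cd34*, *Ly6c1*, *Pi16* and *Cd55* were lower, 4 of 10 beside 4.67%, with *Pi16* at 0.191 and 0.147. *Ly6a*, at 0.669 and 0.662, lay on either side of the limit and was not called. Without the highest Scrublet scores, a score of likely doublets, the log2 ratio of *Pi16* went from -2.39 to -3.73 at puberty and from -2.77 to -4.21 in the adult, and among cells of at most 1 subset it was -5.97 and -5.85. Of *Fabp4* cells, 60.7% at puberty and 72.3% in the adult were also *Gdf10* or *Fmo2* cells, where *Icam1* was higher too. Among cells of at most 1 subset, the log2 ratio of *Icam1* was 2.55 and 1.15 in *Fabp4* cells. In *Gdf10* or *Fmo2* cells it was 2.06 and 1.28.

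*Crabp1* cells differed in most members. *Thy1* was the only member at least 1.5-fold higher in both libraries, at 216 against 104 CPM at puberty and 354 against 178 CPM in the adult, with ratios of 2.08 (1.94 to 2.22) and 1.99 (1.95 to 2.03), 1 of 10 beside 8.39% of 8046 genes. *Cd9* was also higher, at 1.87 and 1.31, but passed the limit at puberty only. *Cd34*, *Ly6a*, *Ly6c1*, *Pi16*, *Cd55*, *Cd248* and *Icam1* were lower, 7 of 10 beside 8.24%. *Ly6c1* had ratios of 0.231 and 0.183, *Ly6a* 0.263 and 0.234, and *Cd34* 0.435 and 0.529. The pubertal values rest on 289 cells. Among cells of at most 1 subset the log2 ratio of *Ly6c1* was -5.05 at puberty and -5.64 in the adult rather than -2.11 and -2.45, and without the highest Scrublet scores it was -3.69 in the adult. The ratio of *Ly6c1* was thus lower in these stricter settings, which also changed the cells that *Crabp1* cells were set against.

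**Figure D2:**
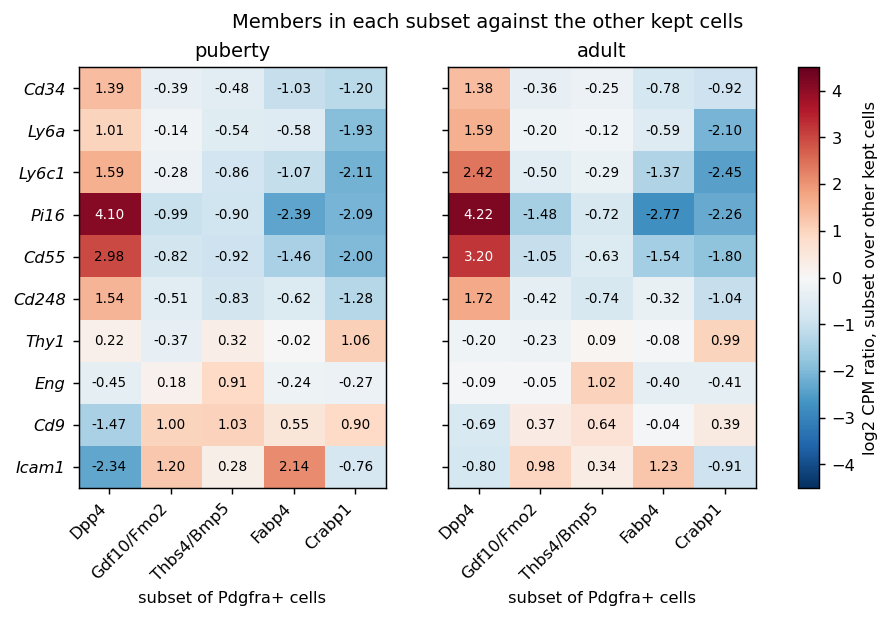
Log2 ratio of CPM in each subset (columns) over the other kept cells of the same library for each member (rows), at puberty (left) and in the adult (right). Red is higher and blue lower in the subset. *Pi16* in *Dpp4* cells reaches 4.10 and 4.22, *Icam1* is red in *Fabp4* cells at 2.14 and 1.23, and *Thy1* is red in *Crabp1* cells at 1.06 and 0.99.

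In the map of subset ratios a call required the same direction in both libraries. Among members that were not called, *Thy1* in *Dpp4* cells differed in sign, with log2 ratios of 0.22 at puberty and -0.20 in the adult, as did *Cd9* in *Fabp4* cells at 0.55 and -0.04 and *Eng* in *Gdf10* or *Fmo2* cells at 0.18 and -0.05. In the order of levels over the 5 subsets, *Dpp4* cells were highest for *Cd34*, *Ly6a*, *Ly6c1*, *Pi16*, *Cd55* and *Cd248* in both libraries. *Crabp1* cells were highest for *Thy1*, *Thbs4* or *Bmp5* cells for *Eng* and *Cd9*, and *Fabp4* cells for *Icam1*, again in both. Some neighbours in these orders could not be separated by counting error: *Crabp1* and *Dpp4* cells for *Icam1* at puberty, *Fabp4* and *Crabp1* cells for *Eng* at both stages, and *Thbs4* or *Bmp5* and *Crabp1* cells for *Cd9* at puberty.

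A gate divides cells into those with and without a signal, so the share of cells with at least 1 UMI was taken after drawing 3000 UMIs from each cell, leaving out 336 pubertal and 426 adult cells below that depth. *Cd34*, *Ly6a*, *Ly6c1*, *Pi16*, *Cd55* and *Cd248* were found in a lower share of adult cells, 6 of 10 members, and *Thy1*, *Eng*, *Cd9* and *Icam1* in a higher share, 4 of 10, with exact Clopper-Pearson intervals that did not overlap. Of all tested genes 24.8% were lower and 45.8% higher in this way, so more genes were higher than lower in the adult, whereas more members were lower than higher. *Ly6a* had a UMI in 91.4% (91.0 to 91.8) of the cells at puberty and in 65.8% (65.1 to 66.4) in the adult, and without thinning in 95.3% and 74.6%. *Cd34* was found in 80.1% and 71.1%, or 96.0% and 90.3% without thinning. At full depth nearly all kept cells thus had at least 1 *Cd34* UMI.

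*Ly6c1* was found in 75.4% and 45.7% of thinned cells (89.0% and 59.7% without thinning), *Pi16* in 70.4% and 41.1% (79.0% and 52.9%), *Cd55* in 62.1% and 38.5% (82.0% and 60.1%) and *Cd248* in 62.2% and 44.7% (89.0% and 69.9%). *Cd9* was found in 27.7% and 50.3% (53.7% and 77.1%), *Thy1* in 24.6% and 38.6% (57.8% and 70.4%), *Icam1* in 13.8% and 22.9% (27.9% and 40.0%) and *Eng* in 10.7% and 14.4% (31.3% and 36.6%). The direction was the same with and without thinning for all 10 members.

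Free RNA in droplets can give a UMI to a cell that does not express a gene. Mural-like cells without *Pdgfra*, 694 at puberty and 373 in the adult with median depths of 6350.5 and 6330 UMIs, served as a measure of this, with 668 and 320 of them deep enough for the same 3000 UMIs. There *Cd34* was found in 2.99% and 0.625%, *Ly6a* in 6.89% and 3.75%, *Pi16* in 4.04% and 3.75%, *Cd55* in 1.80% and 0.312% and *Icam1* in 1.35% and 2.50%, all far under the kept cells. *Thy1* was found in 4.49% and 14.4% of them. Mural-like cells with a *Pdgfra* UMI were left out, so these shares may be too low as a measure of free fibroblast RNA. *Cd9*, at 68.4% at puberty and between 39.5% and 50.6% by its interval in the adult, and *Eng*, at 10.0% and 15.6%, were about as common in mural-like as in kept cells or more so, so these cells give no background for either gene. For *Eng*, skeletal muscle-like cells without *Pdgfra* gave 1.69% of 118 adult cells, and for *Cd9* no background was available from mural-like or skeletal muscle-like cells, which both had it.

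**Figure D3:**
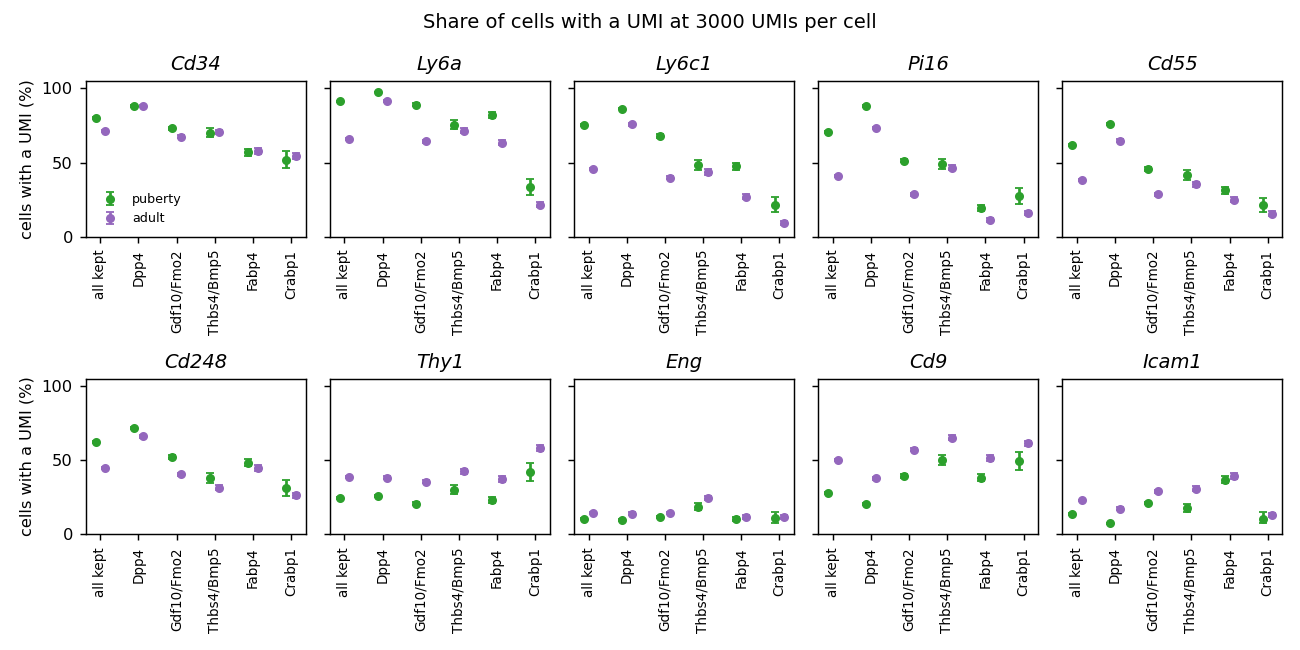
Share of cells with at least 1 UMI of each member (vertical axis, percent) after thinning to 3000 UMIs per cell, over all kept cells and in the 5 subsets, for puberty (green) and adult (purple). Error bars are exact Clopper-Pearson 95% intervals. *Cd34* in *Dpp4* cells is at 88.0% and 88.4%, while *Ly6a* in *Crabp1* cells is at 33.3% and 21.7%.

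In the plot of detection by subset, *Cd34* is a broad marker. It was found in 88.0% and 88.4% of *Dpp4* cells and still in 52.1% and 54.5% of *Crabp1* cells. *Ly6a* had a wider span, from 97.6% and 91.6% of *Dpp4* cells to 33.3% and 21.7% of *Crabp1* cells. *Pi16* had a UMI in 88.3% of *Dpp4* cells at puberty and 73.3% in the adult although its CPM there was level, so no order is read from that share. Its lowest share was in *Fabp4* cells, at 19.5% (17.7 to 21.4) and 11.2% (10.0 to 12.5), still above the mural-like cells. Of *Fabp4* cells, 29.1% and 22.1% were also *Dpp4* cells, and the part of shared cells and of doublets in this share was not tested. *Icam1* was found in 36.8% and 39.2% of *Fabp4* cells and in 7.63% and 17.5% of *Dpp4* cells, and *Thy1* in 42.0% and 58.3% of *Crabp1* cells.

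Read the other way, from marker to subset, 2 or more UMIs of a member selected some subsets well and others poorly. Of thinned cells, 76.2% at puberty and 46.4% in the adult were *Dpp4* cells. Among those with at least 2 UMIs of *Pi16* the share was 98.1% and 92.1%, of *Cd55* 97.1% and 93.2%, of *Cd34* 90.1% and 69.5%, and of *Ly6a* 84.0% and 71.0%. *Pi16* and *Cd55* thus selected a population with a larger share of *Dpp4* cells in the adult than *Cd34* or *Ly6a* did. Among cells with at least 2 *Icam1* UMIs, 34.7% and 25.8% were *Fabp4* cells, against 9.55% and 12.4% of all, and 63.7% and 64.8% were *Gdf10* or *Fmo2* cells, against 39.8% and 48.2% of all. Among cells with at least 2 *Thy1* UMIs, 3.89% and 26.7% were *Crabp1* cells, against 1.55% and 12.9% of all, and among those with at least 2 *Eng* UMIs, 13.6% and 39.3% were *Thbs4* or *Bmp5* cells, against 4.90% and 15.0%.

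Cells typically carried several members at once. In thinned cells the median number found was 5 of 10 at puberty and 4 in the adult, 6 in *Dpp4* cells of both stages and 3 in *Crabp1* cells of both. Cells without any of the 10 made up 0.728% at puberty and 2.08% in the adult, and 8 or more in 3.37% and 4.10%.

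For each of the 45 pairs, the share of thinned cells with both genes was set against the product of the single shares. Only *Pi16* with *Cd55* reached 1.2 times the product in both libraries, at 1.24 (54.2% of cells with both) at puberty and 1.73 (27.3%) in the adult. A ratio of this kind has a ceiling set by the more common gene, so pairs with *Ly6a* at puberty could not reach 1.2. Pairs at most 1/1.2 of the product in both libraries numbered 6: *Pi16* with *Cd9* and with *Icam1*, *Cd55* with *Cd9* and with *Icam1*, *Cd248* with *Cd9*, and *Thy1* with *Icam1*. *Pi16* with *Icam1* was the lowest, at 0.480 and 0.646. At 5000 UMIs per cell *Pi16* with *Cd55* no longer reached 1.2 in both, and without thinning its ratios were 1.13 and 1.35. Pairs of other genes were not taken, here or inside the subsets, so the counts of pairs have no background.

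The phi coefficient, the correlation of presence and absence of a pair, was taken across 18542 and 20573 cells that share a library. It was 0.475 and 0.479 for *Pi16* with *Cd55*, and 0.383 and 0.564 for *Ly6a* with *Ly6c1*, the Ly6 pair. Of cells with *Ly6c1*, 97.5% at puberty and 95.0% in the adult also had *Ly6a*, whereas 80.4% and 65.9% of cells with *Ly6a* had *Ly6c1*. *Ly6c1* cells were thus almost all inside the *Ly6a* cells. *Ly6a* was itself found in 91.4% of all thinned cells at puberty and in 65.8% in the adult. *Cd34* with *Pi16* had phi of 0.325 and 0.309. Of cells with *Pi16*, 88.5% and 87.9% had *Cd34*, beside 80.1% and 71.1% of all thinned cells. *Thy1* and *Eng* had phi within 0.1 of 0 with every other member at both stages.

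**Figure D4:**
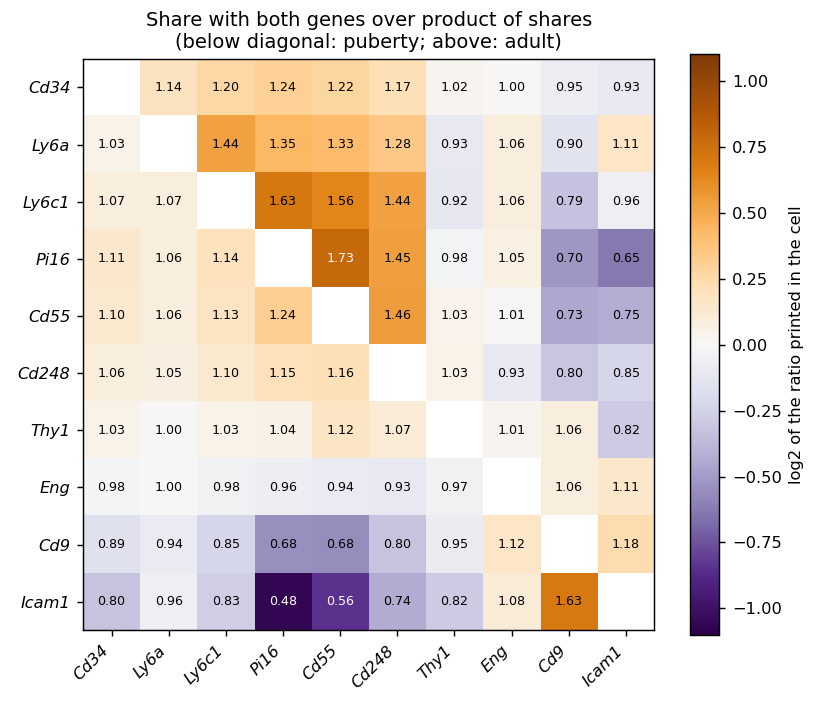
Share of thinned cells with both members of a pair divided by the product of the single shares, printed in each square and coloured on a log2 scale (orange above 1, purple below), with puberty under and the adult above the diagonal. *Pi16* with *Cd55* is at 1.24 and 1.73, and *Pi16* with *Icam1* at 0.48 and 0.65.

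In the map of pairs, all pairs among *Cd34*, *Ly6a*, *Ly6c1*, *Pi16*, *Cd55* and *Cd248* lie above 1 at both stages. Their size is not compared between the stages, since the ceiling moves with the shares. *Cd9* with *Icam1* had ratios of 1.63 and 1.18. Inside *Dpp4* cells that pair was the only one past 1.2 in both libraries, at 1.96 and 1.504, and *Pi16* with *Icam1* stayed low at 0.750 and 0.698. *Pi16* with *Cd55* was at 1.04 and 1.16 in *Dpp4* cells, where both genes are common. Inside the other subsets it was past 1.2 at both stages, at 1.49 and 1.90 in *Gdf10* or *Fmo2* cells, 1.49 and 1.36 in *Thbs4* or *Bmp5* cells, 1.99 and 1.88 in *Fabp4* cells and 2.09 and 2.07 in *Crabp1* cells. In *Crabp1* cells 16 pairs passed 1.2, with *Ly6a* and *Ly6c1* at 2.37 and 3.73, and 386 of the adult *Crabp1* cells were also *Dpp4* cells. *Dpp4* cells made up 58.4% of *Gdf10* or *Fmo2* cells at puberty and 35.3% in the adult. For *Thbs4* or *Bmp5* cells the shares were 46.1% and 42.2%, for *Fabp4* cells 29.1% and 22.1%, and for *Crabp1* cells 22.5% and 14.4%. Pairs were not taken with shared cells left out, so the part of this overlap in the ratios was not tested.

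Because the study sorted fibroblasts by CD34, the other members were read across cells with 0, 1, 2 and 3 or more *Cd34* UMIs of 3000. These groups held 19.9%, 23.8%, 21.6% and 34.8% of pubertal cells and 28.9%, 25.3%, 17.9% and 28.0% of adult cells. From the lowest to the highest group, the share with *Pi16* went from 40.6% to 88.7% at puberty and from 17.2% to 70.9% in the adult. *Cd55* went from 37.7% to 77.7% and from 18.0% to 63.7%, and *Ly6c1* from 55.5% to 86.3% and from 22.9% to 72.5%. Each of these shares climbed with each step in *Cd34*.

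*Icam1* went the other way, from 24.99% to 6.97% at puberty and from 26.7% to 16.6% in the adult, and *Cd9* from 39.6% to 19.2% and from 56.4% to 38.5%. *Thy1* moved little, from 21.2% to 26.6% and from 37.2% to 40.6%, and *Eng* hardly at all, from 11.4% to 9.96% and from 14.4% to 14.2%. The share of *Dpp4* cells went from 45.8% to 93.6% at puberty and from 18.6% to 78.7% in the adult, that of *Fabp4* cells from 20.7% to 2.90% and from 18.0% to 5.73%, and that of *Crabp1* cells from 3.74% to 0.357% and from 20.3% to 5.49%. Cells with no *Cd34* UMI at this depth are not all without the transcript, since 96.0% and 90.3% of kept cells had one at full depth.

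**Figure D5:**
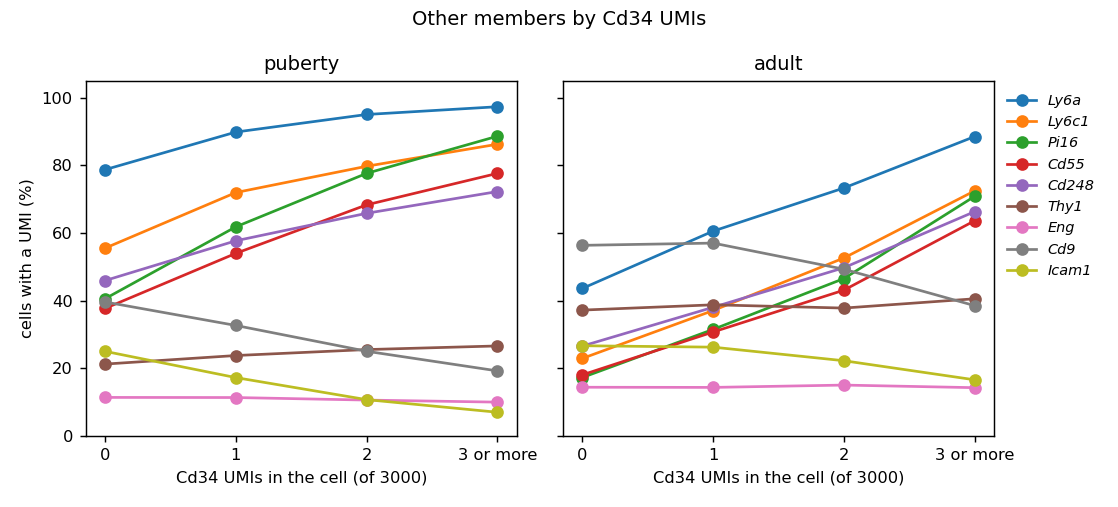
Share of cells with at least 1 UMI of each other member (vertical axis, percent) by the number of *Cd34* UMIs in the same cell (horizontal axis), both of 3000 UMIs, at puberty (left) and in the adult (right). *Pi16*, *Cd55*, *Ly6a*, *Ly6c1* and *Cd248* climb with *Cd34*, *Icam1* and *Cd9* are lower at 3 or more *Cd34* UMIs than at 0, and *Thy1* and *Eng* are nearly flat.

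Across cells, the genes most like each member in presence and absence were sought among 6153 genes found in at least 5% of thinned cells at both stages. *Pi16* was most like *Anxa3*, an annexin gene (mean phi 0.626), then *Dpp4* (0.602) and *Sema3c*, a secreted semaphorin gene (0.591). *Anxa3*, *Pi16* and *Dpp4* were also the closest to *Cd55* (0.482, 0.477 and 0.468), *Sema3c*, *Anxa3* and *Dpp4* to *Cd248* (0.344, 0.342 and 0.333), and *Sema3c*, *Pi16* and *Dpp4* to *Cd34* (0.318, 0.317 and 0.314). These 4 members thus drew on the same small set of genes. The Ly6 genes had other neighbours: *Plac9*, the complement gene *C3* and *Opcml* for *Ly6a* (0.502, 0.494 and 0.473), and *Opcml*, *Ly6a* and *C3* for *Ly6c1* (0.493, 0.473 and 0.468).

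*Cd9* was most like *Igfbp7*, the proteoglycan gene *Bgn* and *Mgp*, a matrix calcification inhibitor gene (0.300, 0.286 and 0.263), and *Icam1* was most like *Apoe*, *Sparcl1* and *Igfbp7* (0.243, 0.236 and 0.226). *Thy1* (*Pla1a*, *Postn* and *Lamb1*) and *Eng* (*Cilp*, *Smoc2* and *Myoc*) had no close neighbour, with mean phi of at most 0.0845 and 0.0826. Values this low are not read as a relation.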

How the data were processed

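Libraries were made with version 4 of the 10x GEM-X 3′ chemistry and processed by the authors with Cell Ranger 8.0.1 against mm10, per the labels; the gene annotation was not given in the sources used here. The deposited matrices hold raw UMI counts per gene and cell, not normalized. Cells were kept with at least 500 genes, at most 10% mitochondrial UMIs and at least 1 *Pdgfra* UMI. Counts were summed over cells and scaled to CPM, and a gene was tested at a mean of at least 10 CPM. Calls are by size (1.5-fold), since 1 library per stage allows no test. Intervals are exact (Poisson for sums, conditional binomial for ratios, Clopper-Pearson for shares), at 95%, for counting error only. Shares of cells with a member were compared at 3000 UMIs per cell, whereas subsets were set on unthinned counts unless stated. The calling steps were tested on simulated data.

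Doublets were left in. Scrublet's own threshold marked 0 pubertal and 697 adult barcodes and had not worked at puberty, so an alternative removed the highest scores (1881 and 2150 barcodes). Members, subsets and gene lists were chosen with earlier results of these data known. Named genes were all 10 members, the 3 genes most like each, near copies, and up to 4 genes of each list with the largest log2 ratio in size. The reading from marker to subset and at 2 or more UMIs was added after values were seen. Alternatives changed cell limits, scaling, thinning and call sizes. Python 3.11.15, scanpy 1.11.5, R 4.3.3 and edgeR 4.0.16 (scaling factors only) were used.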

Additional observations from a re-analysis of the deposited data

How the results depend on the processing

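Counts of members or pairs were recomputed 134 times under other settings, and 115 stayed within 1.5 times. The number of members lower in the adult was 4 with TMM or RLE scaling or the mean of per-cell CPM, and 0 with equal weight for each subset or a 2-fold limit, instead of 2. With cells in exactly 1 subset set against those in another or in none, *Gdf10* or *Fmo2* cells had 2 members higher and 7 lower, and *Thbs4* or *Bmp5* cells 5 lower. At 2-fold, 0 members were lower in *Dpp4* cells, 0 higher and 0 lower in *Gdf10* or *Fmo2* cells and in *Thbs4* or *Bmp5* cells, and 0 higher in *Crabp1* cells. No share over all genes was taken for these subset counts, and none over pairs of other genes for the counts of pairs. Pairs found together more often numbered 0 at 5000 UMIs, without thinning and with a factor of 1.5, and pairs found together less often 0 without thinning and 1 with a factor of 1.5. The *Fabp4* counts stayed within 1.5 times at 2-fold. No log2 ratio of a member called by size changed sign. No paired analysis was possible because each stage has 1 library. With 1 library per stage no replicate could be left out, and low UMI counts limit *Eng* and the pubertal *Crabp1* cells most.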
